A study of Caenorhabditis elegans with 2 samples.

Results

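The lipl genes of Caenorhabditis elegans encode lysosomal acid lipases, and all 8 members, lipl-1 to lipl-8, were taken by name from the 19973 annotated protein-coding genes. They were examined in chromatin immunoprecipitation sequencing data for MXL-3, a Max-family factor with a helix-loop-helix and leucine zipper DNA-binding and dimerisation region. The data came from 2 biological replicates of 1 group, so positions in the genome were compared and not conditions. The animals were L4 larvae of mixed sex, aged 48 hours, from strain OP745, which carries the transgene wgIs745 in an unc-119(tm4063) background. In wgIs745 the mxl-3 gene is joined to the tags TY1, EGFP and 3xFLAG, and unc-119(+) serves as the rescue marker. They had been synchronised by bleaching and starvation as first-stage larvae, whole worms were used, and their feeding state at harvest is not given in the labels. The antibody was against GFP, so the signal is that of the tagged transgenic protein in 1 strain, and a signal from one tissue is diluted by all others.

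Lysosomal acid lipases cleave stored triglycerides and other lipid esters inside lysosomes, and release fatty acids that can serve as fuel or as signals. In published work on worms, MXL-3 restrains lipl genes while food is present, and HLH-30, the worm counterpart of TFEB, activates them when food is withdrawn. Both factors recognise the E-box, a hexamer of the form CANNTG, and Max-family and TFEB-family proteins prefer its palindrome CACGTG. LIPL-4 is known for extending lifespan when it is overproduced in the intestine, and acts there through the lipid carrier LBP-8 and the nuclear receptors NHR-49 and NHR-80.

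The sequences that the results turn on are the 6 CACGTG sites in lipl promoter windows and the far upstream site of lipl-2, which lies at the family's strongest peak. All are given 5′ to 3′ on the strand of the lipl gene with 12 bases on either side, from RefSeq WBcel235, and capitals mark the hexamer. The first 3 had an MXL-3 peak that passed the authors' threshold, and the other 4 had no peak summit within 100 bp in any deposited list.
lipl-5 (chrV:385689-385718, plus strand): acgaaattcaaaCACGTGgtgtgcatattt
lipl-2, near site (chrV:9791516-9791545, plus strand): acaatacttcgaCACGTGtttcatatataa
lipl-2, far site (chrV:9790114-9790143, plus strand): atgtttagatgtCACGTGgtgtctatggac
lipl-1 (chrV:12919551-12919580, plus strand): tttttaaaaaacCACGTGgaaatatttcag
lipl-3 (chrV:524632-524661, minus strand): cggtcaaacatgCACGTGttttaacgccta
lipl-7, near site (chrIV:10242135-10242164, minus strand): acaacctgacacCACGTGaaatataagtat
lipl-7, far site (chrIV:10242301-10242330, minus strand): gtactcaaatatCACGTGgtgtcagaatgt

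The authors deposited 4 peak lists. The list that passed the irreproducible discovery rate (IDR) threshold had 3935 peaks, and the pooled and replicate lists, which keep background, had 30000 each. The value of a peak is the authors' signal value, whose scale is not defined in the sources used here. IDR peaks had values of 91.1 to 1445 and pooled peaks of 29.3 or more, and these are used to rank peaks within a list. No read totals were used, so depth is unknown and a signal has no error of its own beyond the difference between the replicates. Of the IDR peaks, 3795 (96.4%) had a summit within 100 bp in both replicate lists, at a median offset of 20 bp between the replicates and a median ratio of 1.32 of replicate 2 to replicate 1 signal.

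lipl-2, lipl-5 and lipl-1 had MXL-3 peaks above the threshold, and the other 5 lipase genes had none within 3 kb. IDR summits lay within 3 kb of 3 of the 8 lipl genes (37.5%), where 26.9% of all protein-coding genes had one. The same 3 genes had an IDR summit in the promoter window, taken as the stretch reaching 1000 bp before and 200 bp past any annotated start, where 11.3% of all protein-coding genes had one. With 8 members chosen by name, both shares are descriptions. The 3 genes hold 5 IDR summits between them, 2 each at lipl-1 and lipl-2 and 1 at lipl-5. CACGTG stood within 100 bp of 3 of these 5 summits, against 15.9% of all IDR summits.

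**Figure D1:**
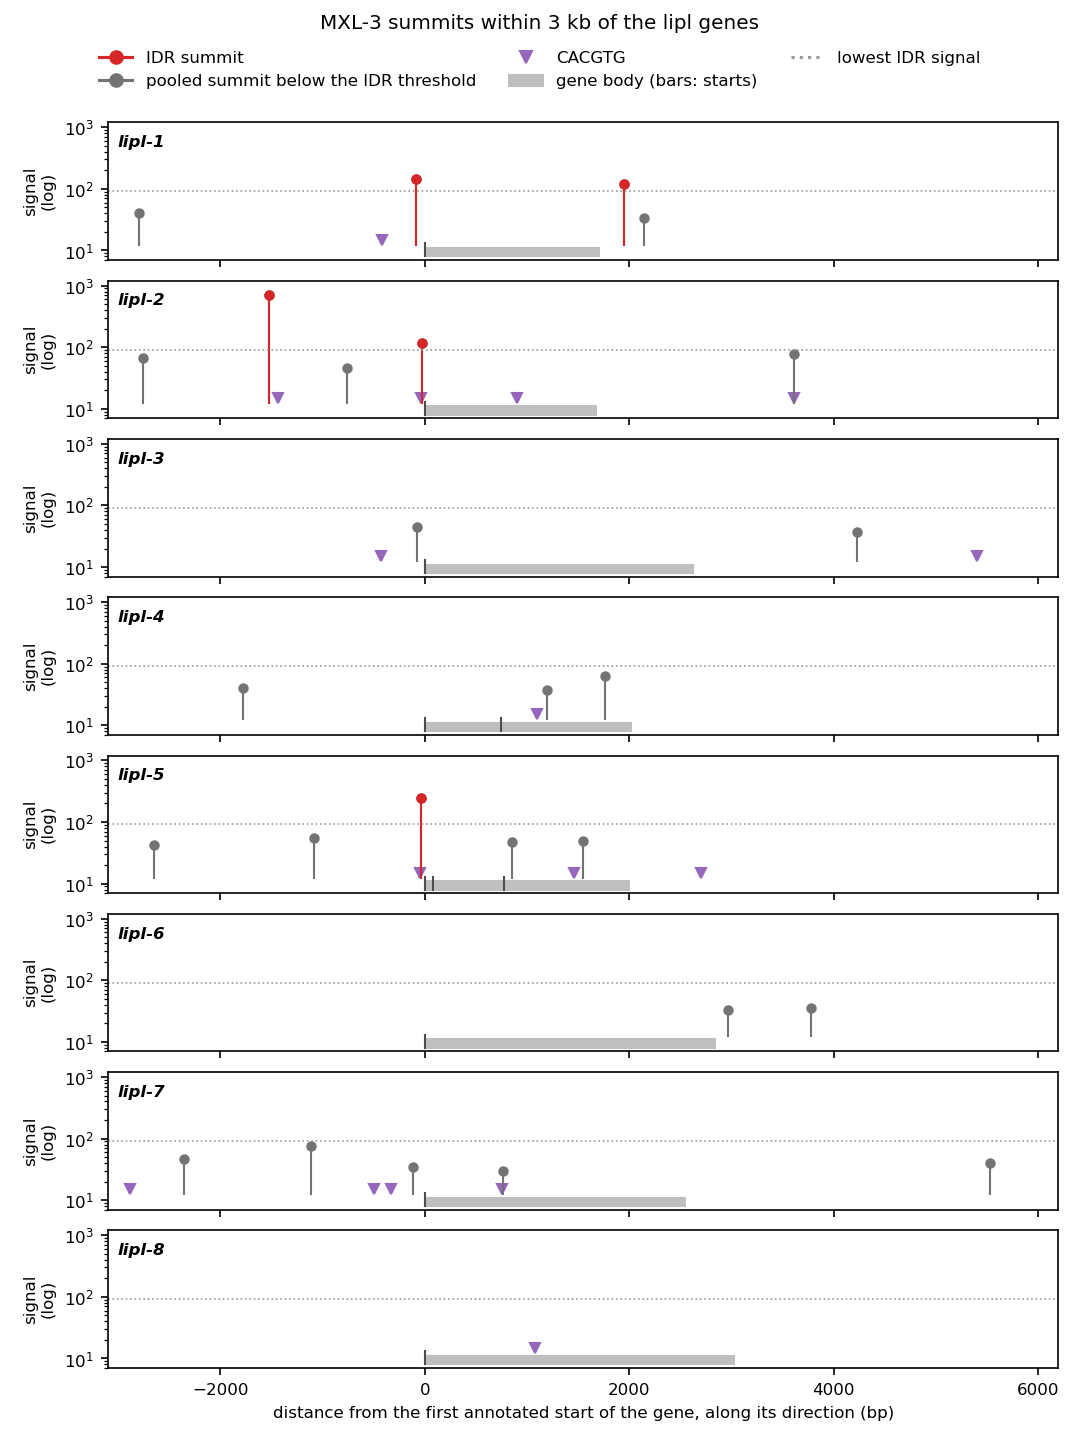
MXL-3 summits and CACGTG sites within 3 kb of each lipl gene, by distance from the first annotated start in the direction of the gene (bp), with the authors' signal on a log axis in the pooled list. Red stems are IDR summits, grey stems pooled summits below the threshold, triangles CACGTG sites and grey boxes gene bodies, and red stems appear at lipl-1, lipl-2 and lipl-5 alone.

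lipl-2 had the strongest nearby peak of the family, but it stood far upstream and nearer to another gene. The lipl-2 gene (WBGene00009773) lies on V from 9791567 to 9793241 on the plus strand. The peak spanned 9789910 to 9790191 with its summit at 9790046, in intergenic sequence 1521 bp upstream of the lipl-2 start. It had a signal of 700.2 and ranked 45 of 3935 in the IDR list. It ranked 66 in replicate 1, with a signal of 269, and 39 in replicate 2, with 423. The summit was at the same base in both replicate lists, so its place did not vary between them. Only 0.476% of protein-coding genes had as strong a pooled summit within 3 kb. Its position is shared, since it lay at -339 bp from the start of ztf-7, a zinc finger gene transcribed away from lipl-2, and at -13 bp from that of the noncoding RNA gene F46B6.15 (negative distances are upstream). The data do not tell which of these genes the peak belongs to. The stretch within 100 bp of it held 3 E-boxes, of which CACGTG was centred 82.5 bp from the summit on the lipl-2 side. CACCTG was centred 22.5 bp away. CACATG, here read as CATGTG, was centred 82.5 bp away on the ztf-7 side. The window is printed because the hexamer stands at its edge and not under the summit, and capitals mark E-boxes.
lipl-2, upstream peak (chrV:9789946-9790146, plus strand): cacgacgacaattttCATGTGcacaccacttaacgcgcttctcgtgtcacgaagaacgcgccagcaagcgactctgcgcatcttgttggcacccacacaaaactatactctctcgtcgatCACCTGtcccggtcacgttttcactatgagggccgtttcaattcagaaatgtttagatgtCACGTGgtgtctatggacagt

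The second lipl-2 peak sat at the start of the gene, directly over a CACGTG site. Its summit at 9791537 (peak 9791349 to 9791724) lay in intergenic sequence 30 bp upstream of the start, 1491 bp from the strong peak, and the hexamer was centred 6.5 bp from it. The signal was 116 and the rank 2646 in the IDR list, so 67.2% of IDR peaks were at least as strong. The replicates placed it differently in the order, at rank 1788 in replicate 1 with a signal of 64.9 and at rank 3714 in replicate 2 with 55.9. The ratio of replicate 2 to replicate 1 was 0.861, and 91.8% of matched IDR peaks had at least that ratio. With the IDR list split by signal into 2 equal parts, this peak was absent from the upper one, where lipl-2 had its far upstream peak alone. The hexamer is printed in its surroundings up to the last base before the start, with CAGATG, read as CATCTG, as its other E-box. A CACATG centred 73.5 bp from the summit lay past the start and is not printed.
lipl-2, promoter peak (chrV:9791437-9791566, plus strand): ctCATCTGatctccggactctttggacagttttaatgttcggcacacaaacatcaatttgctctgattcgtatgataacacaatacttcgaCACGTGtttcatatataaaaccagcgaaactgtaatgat

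A further CACGTG downstream of lipl-2 carried a summit below the threshold. The pooled summit at 9795180, in intergenic sequence 1939 bp past the end of the gene, was centred 4.5 bp from a CACGTG and had CACATG at 22.5 and 59.5 bp. Its pooled signal was 77.6 and its rank 5074, where the lowest IDR signal was 91.1. It ranked 3750 in replicate 1 and 6031 in replicate 2. It would therefore have been among the 3935 highest of replicate 1 but not among those of replicate 2. The fourth CACGTG near lipl-2, in an intron at 9792468 to 9792473, had no summit within 100 bp in any list.

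lipl-5 had the strongest peak at a lipl promoter, with the narrowest interval of the family. The gene (WBGene00022642) lies on V from 385746 to 387740 on the plus strand and has 3 annotated starts. The summit at 385707 (peak 385628 to 385765) was intergenic, 39 bp upstream of the first start, and CACGTG was centred 3.5 bp from it. The signal was 248 and the rank 658 of 3935, and among IDR peaks with CACGTG 28.5% were at least as strong. It ranked 767 in replicate 1, with a signal of 101, and 570 in replicate 2, with 152. The summits of the replicates were 2 bp apart, and their signal ratio was 1.51, which 33.2% of matched IDR peaks reached. The interval was 138 bp wide, where 3.28% of IDR peaks were as narrow and the median was 376 bp. Over all IDR peaks with CACGTG the median distance from hexamer to summit was 28.5 bp, and 20.6% had it within 10 bp, as lipl-5 and the lipl-2 promoter did. The window is printed for the hexamer under the summit and the pair of TGATAA hexamers before it, in lower case.
lipl-5, promoter peak (chrV:385607-385745, plus strand): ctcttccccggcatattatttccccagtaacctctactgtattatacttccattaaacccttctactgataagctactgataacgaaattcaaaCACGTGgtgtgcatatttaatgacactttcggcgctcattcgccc

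The other summits at lipl-5 were weak. Pooled signals of 46.8 and 48.5 stood in coding sequence at 386598 and 387295, and 55.4 and 42.4 stood 1080 and 2647 bp upstream of the first start. The best rank among these 4 was 9363 in the pooled list. In replicate 1, summits at 386441, 387304 and 384729 ranked higher, at 4675, 5289 and 6149. In replicate 2, summits at 386606, 384717 and 384474 ranked 12610, 24431 and 6864. The summit at 387295 had CACGTG 89.5 bp away and was matched within 100 bp in replicate 1 but not in replicate 2. The third CACGTG, past the end of the gene at 388445 to 388450, reads TCACGTGA with its flanking bases and had no summit within 100 bp in any list.

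lipl-1 had a peak at its start without a CACGTG under it, although its promoter holds one. The gene (WBGene00010062) lies on V from 12919986 to 12921692 on the plus strand. The summit at 12919904 (peak 12919716 to 12920091) was intergenic, 82 bp upstream of the start, with a signal of 145 and rank 1814. It ranked 2060 in replicate 1 with a signal of 59.7 and 1968 in replicate 2 with 80.4. The replicate summits were 53 bp apart, more than the median of 20 bp, and the one of replicate 1 was only 29 bp from the start. The single CACGTG of the promoter was centred 338.5 bp from the summit, outside the peak. Within 100 bp the only E-box was CAAATG, read as CATTTG, centred 67.5 bp away.
lipl-1, promoter peak (chrV:12919804-12919985, plus strand): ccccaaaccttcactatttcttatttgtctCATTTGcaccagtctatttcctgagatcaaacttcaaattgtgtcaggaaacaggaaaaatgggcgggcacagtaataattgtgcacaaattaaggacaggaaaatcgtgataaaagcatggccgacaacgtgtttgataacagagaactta

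The second lipl-1 summit, at 12921931 (peak 12921743 to 12922118), was intergenic, 239 bp past the end of the gene. It lay at -677 bp from the start of dhrs-4, a short-chain dehydrogenase gene on the same strand, which was nearer than the start of lipl-1. The signal was 122 and the rank 2461, and the replicates ranked it 2064 and 3332 with signals of 59.6 and 59.7. It had CAAATG and CAGATG in its window and no CACGTG.

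The remaining 5 genes had weak summits or none, and the one nearest the threshold was at lipl-7. The lipl-7 gene (WBGene00008510) lies on IV from 10239278 to 10241823 on the minus strand and is the single member not on V. Its strongest pooled summit, at 10242934, had a signal of 75.8 and rank 5260, and ranked 4709 in replicate 1 and 6457 in replicate 2. It was intergenic, 1111 bp upstream of lipl-7 but at -678 bp from the start of the divergent transketolase gene tkt-1, and had no E-box of any class within 100 bp. At the lipl-7 start itself a summit 116 bp upstream had a pooled signal of 34.1 and rank 23932. In coding sequence, a CACGTG centred 6.5 bp from the summit at 10241058 went with a pooled signal of 30.2 and rank 28816, near the bottom of the list, and replicate 1 had no summit there.

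lipl-4 (WBGene00019376, V, 6550171 to 6552186, plus strand) had its strongest summit at the far end of the gene. That summit, at 6551930, lay in the lipl-4 3′ UTR and inside a tRNA gene on the other strand (WBGene00023095), 5 bp past the start of the tRNA gene. Its pooled signal was 62.1 and its rank 7501, with ranks of 6682 and 9721 in the replicates. The summit was at -410 bp from the start of twk-10, which was nearer than any lipl-4 start. lipl-4 had no pooled summit in its promoter window and no CACGTG there. Replicate 2 alone had summits in that window, 763 and 559 bp upstream, with signals of 21.5 and 22.2. The first lay at -40 bp from the start of another gene, K04A8.20, and the second in the coding sequence of K04A8.20. The CACGTG of lipl-4, in coding sequence at 6551270 to 6551275, was centred 96.5 bp from a pooled summit with a signal of 37.6 and rank 20276.

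lipl-3 (WBGene00020016, V, 521595 to 524218, minus strand) had a weak summit at its start. It stood 81 bp upstream with a pooled signal of 45.2 and rank 14171, and CACATG was centred 27.5 bp from it. Replicate 2 had a summit 76 bp upstream with a signal of 32.7 and rank 9857. Replicate 1 had one with 18.5 and rank 20498 at 41 bp past the start, more than 100 bp from the pooled summit, so the replicates did not place it alike. lipl-6 (WBGene00021963, V, 6931475 to 6934312, minus strand) had pooled summits only beyond its 3′ end, with signals of 36.1 and 32.9. These lay at -1492 and -2303 bp from the start of unc-68, nearer than the start of lipl-6. Replicate 1 alone had a summit in an intron of lipl-6, with a signal of 21.9, and 1 lying 1436 bp upstream, with 22.8. The upstream summit lay in coding sequence of Y57E12B.10, 230 bp past the start of that gene. No CACGTG lay within 3 kb of lipl-6.

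lipl-8 (WBGene00013050, V, 14745684 to 14748708, minus strand) was without any pooled summit in its window of 9025 bp. The other 7 lipl genes had a pooled summit within 3 kb, as did 81.6% of all protein-coding genes. The replicate 1 list had none at lipl-8 either, and the replicate 2 list had 1, in coding sequence at 14747843, with a signal of 22.1 and rank 21923. The pooled and replicate lists hold 30000 peaks each, with lowest signals of 29.3 (pooled), 14.6 (replicate 1) and 18.2 (replicate 2). The absence of a summit means that none was among the peaks listed, at a depth that is unknown here.

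In all, 26 pooled summits lay within 3 kb of the lipl genes, 5 above the threshold and 21 below it. The 21 had a median signal of 42.4, and all 26065 pooled summits below the threshold had 41.4. A match within 100 bp in both replicate lists was found for 7 of the 21 (33.3%), close to the 36.1% of all summits below the threshold. The 5 above it all had a match, as did 96.4% of all IDR peaks. IDR peaks were the 3935 highest of the pooled list by signal, so they are stronger than the summits below by selection. The median strongest pooled signal within 3 kb was 68.9 for the lipl genes and 54.4 for all protein-coding genes. The median number of pooled summits was 3.5 for the lipl genes and 2 for all. The windows had median lengths of 8281 bp for the lipl genes and 8027 bp for all.

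The order lipl-2, lipl-5, lipl-1, lipl-7 by the strongest signal within 3 kb was the same in the pooled list and in both replicates. Signals in replicate 1 were 269, 101, 59.7 and 37.6, and in replicate 2 they were 423, 152, 80.4 and 40.4. The lipl-2 and lipl-7 values come from summits nearer to the start of another gene. By strongest promoter summit in the pooled list the order was lipl-5 (248), lipl-1 (145), lipl-2 (116), lipl-3 (45.2) and lipl-7 (34.1). In replicate 1 the lipl-2 promoter summit (64.9) was above that of lipl-1 (59.7). Within 3 kb, the place of lipl-6 below lipl-7 differed between lists. lipl-4, lipl-3 and lipl-6 had 31.7, 19.6 and 26.1 in replicate 1 and 32.9, 32.7 and 34.8 in replicate 2, so that lipl-6 was the lowest of these in the pooled list and the highest in replicate 2. lipl-4 was above lipl-3 in all 3 lists, though by 32.9 against 32.7 in replicate 2, and lipl-8 was last in each list. For lipl-3 and lipl-6 the strongest summits of the replicates lay at different places. The lipl-3 value of 19.6 was in an intron of srw-107, nearest to the start of nhr-210, and that of 32.7 was 76 bp upstream of lipl-3. In all 3 lists the lipl-4 and lipl-6 values come from summits nearer to the starts of twk-10 and unc-68.

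**Figure D2:**
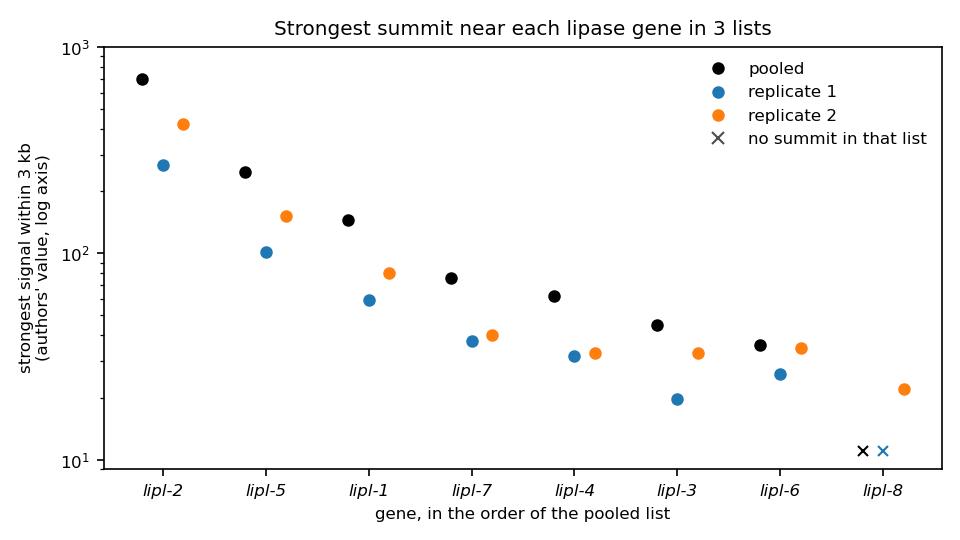
Strongest signal within 3 kb of each lipl gene (authors' value, log axis) in the pooled, replicate 1 and replicate 2 lists, with crosses where a list has no summit. The 4 genes on the left fall in the same order in every list, while lipl-6 changes place relative to lipl-4 and lipl-3. The strongest summits of lipl-2, lipl-7, lipl-4 and lipl-6 lie nearer to the start of another gene, as does that of lipl-3 in replicate 1.

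**Figure D3:**
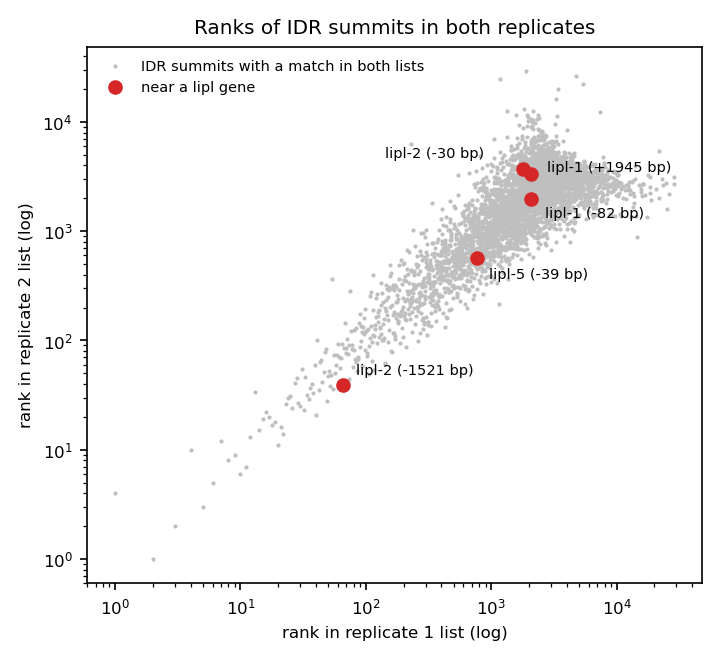
Rank of each IDR summit in the replicate 1 list (x) and the replicate 2 list (y), both on log axes, for the 3795 IDR summits matched in both. Red points are the 5 summits near lipl genes with their distance from the lipl start; the far upstream lipl-2 summit is among the strongest in both lists, and the lipl-2 promoter summit lies above the diagonal with ranks of 1788 and 3714.

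Within lipl promoter windows, the 2 CACGTG sites with a summit within 100 bp were those next to the annotated start, and the 4 further upstream had none. CACGTG was present in the promoter window of 5 of the 8 lipl genes, against 21.4% of all protein-coding genes. These 5 genes held 6 sites, and 2 of them, at lipl-5 and lipl-2, had an IDR summit within 100 bp, against 6.39% of all 4855 promoter CACGTG sites. Their first bases lay at -45 bp from the lipl-5 start and at -39 bp from the lipl-2 start. The other 4 lay at -423 bp from the start of lipl-1, at -431 bp from that of lipl-3, and at -329 and -495 bp from that of lipl-7. No list had a summit within 100 bp of these 4, which was the case for 76.4% of all promoter CACGTG sites. The nearest pooled summits were 338.5 bp away at lipl-1, 347.5 bp at lipl-3, and 210.5 and 376.5 bp at lipl-7. The lipl-7 site at -329 bp lay inside a replicate 1 peak whose summit was 150.5 bp away.

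Across the genome an IDR summit stood within 100 bp of 10.8% of 641 sites whose first base lay in the 100 bp before a start, and of 5.44% of 753 sites in the stretch from 500 to 300 bp before it. The share was 11.4% between -200 and -100 bp and 3.74% in the first 100 bp past the start. A summit in any list, which is the measure used for the 4 lipl sites without one, stood at 24.8% of the sites in the 100 bp before a start and at 24.3% of those from 500 to 300 bp before it. By that measure the shares at these distances differed little. Sites that share a promoter or a repeat are not independent, and no test was made.

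**Figure D4:**
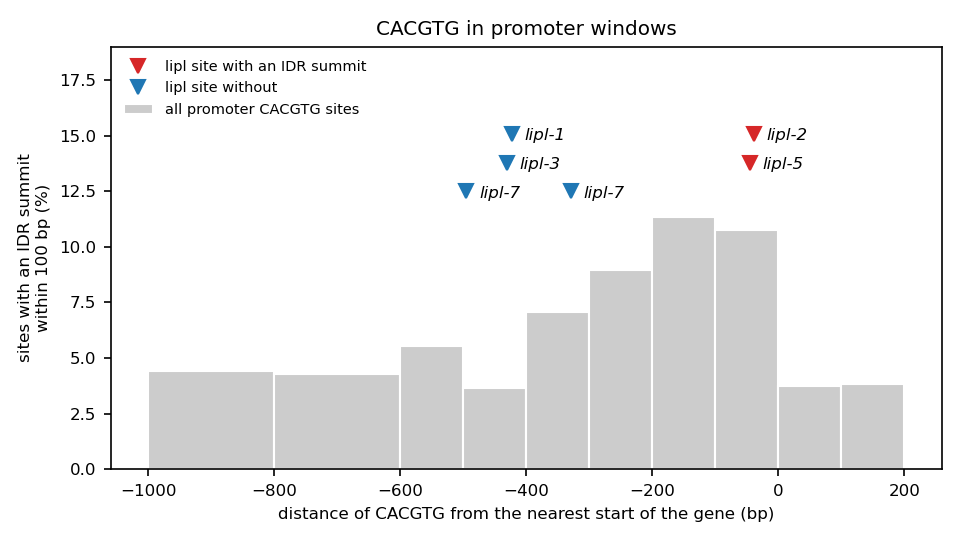
Share of all promoter CACGTG sites with an IDR summit within 100 bp (bars, %), by distance of the site's first base from the nearest start of the gene (bp). Triangles mark the 6 sites of lipl genes, red with an IDR summit and blue without (their height has no meaning), and the red ones lie within 100 bp of a start while the blue ones lie between -495 and -329 bp.

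The bases beside the hexamer differed between the sites as well. A T before CACGTG on at least 1 strand was present at 2 of the 6 promoter sites, both of lipl-7 and both without a summit within 100 bp. The promoter sites of lipl-5 and lipl-2 with a summit were without it. The far upstream site of lipl-2, at the strongest peak, had such a T, so it was present at sites with and without a summit. Over all promoter CACGTG sites 37.7% of those at an IDR summit had such a T, and 44.2% of those without a summit in any list. The full octamer TCACGTGA stood in no lipl promoter window, and in 2.25% of all promoter windows. The 8 windows of 3 kb around the lipl genes held 16 CACGTG sites in 66426 bp, or 24.1 per 100 kb, where the nuclear genome has 17.7. Of the 10 sites outside promoter windows, 5 had a summit within 100 bp in some list, a share not counted over all such sites. An IDR summit was near only the far upstream site of lipl-2. One of the others, at -2886 bp from the lipl-7 start in coding sequence of tkt-1, was covered by a pooled peak with a signal of 49.8 whose summit was 182.5 bp away.

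The 2 lipl-7 promoter sites belonged to a repeated sequence. They lay 166 bp apart and were embedded in the same 14 bases in opposite directions, TCACGTGGTGTCAG. That run occurs 341 times in the nuclear genome, counted on both strands, and held 85 of the promoter CACGTG sites, 1 of them at an IDR summit. Its shorter core CACGTGGTGT was also present at the lipl-5 promoter site and the far lipl-2 site, which both had IDR summits, and at 7.23% of all promoter CACGTG sites. Of promoter sites at an IDR summit 3.55% had this core, and of those without a summit in any list 7.63%. These motifs were picked after the sequences had been seen.

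Other motifs near the lipl summits included TGATAA, the hexamer known for GATA factors of the worm gut. It was found, on either strand, within 100 bp of 4 of the 5 IDR summits near lipl genes, against 27.6% of all IDR summits. The exception was the far upstream lipl-2 peak. In promoter windows it was common, in 8 of 8 lipl genes and 75.4% of all genes. GTAAACA, the sequence preferred by the FOXO factor DAF-16, stood at none of the 5 summits, against 3.48% of all IDR summits, and in 1 of 8 lipl promoter windows, against 17.1% of all. CACATG stood at 2 of the 5 summits, both of lipl-2, against 17.3% of all IDR summits. Windows around the 5 summits ranged in GC content from 32.3% at the downstream lipl-1 summit to 49.8% at the far lipl-2 peak, and the median over all IDR summits was 44.8%.

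The 3 promoter summits of lipl genes also resembled each other in place, at 82, 39 and 30 bp before the start for lipl-1, lipl-5 and lipl-2. Of the 2255 genes with an IDR promoter summit, 16.3% had their strongest one in the 100 bp before a start, and the median position was -240 bp. Genes whose strongest promoter summits ranked next to them give the scale of these signals. lipl-5, at rank 658, stood between aka-1 and ubc-6, which share a summit at rank 657, and let-805 at rank 659. lipl-1, at rank 1814, stood between skpo-2 at 1812 and T04C12.8 at 1815. The lipl-2 promoter summit, at rank 2646, stood between best-1 at 2643 and the shared summit of Y119C1A.1 and lmd-2 at 2649. Of these neighbours only best-1 had CACGTG at its summit.

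Promoter peaks were also present at other genes of lipid handling and of the Max network. A list of 21 genes, called the fasting list below, covered lipid handling, the lysosome, the fasting response and the Max network. Of these, 12 had an IDR promoter summit (57.1%), against 11.3% of all protein-coding genes. The list was drawn up with earlier results of these data known and includes mxl-3 itself, so this share is a description. The strongest promoter summits belonged to mdl-1, a Mad-like gene of the Max network, with a signal of 548, and to mxl-3 itself with 489. The locus of mxl-3 is also carried by the transgene, and the lists do not separate the copies. They were followed by hlh-30 with 381, nhr-66 with 238, nhr-49 with 227 and lmp-1, a LAMP gene of the lysosomal membrane, with 198. Of these 6 summits only that of mdl-1 had CACGTG within 100 bp. Of the other LIPL-4 partners, picked here after their values were seen, nhr-80 had a promoter summit with a signal of 119. lbp-8 had no IDR summit within 3 kb, and its strongest pooled signal there was 80.1. lipl-4 itself also had no IDR summit within 3 kb.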

How the data were processed

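Chromatin immunoprecipitation sequencing of tagged MXL-3 was done in 2 replicates of 1 group, given as biological replicates in the labels. The authors deposited narrowPeak lists on ce11, whose sequence is that of WBcel235. The deposited file listings trace each replicate list to that replicate's alignments with a control, the pooled list to the alignments of both, and the IDR list to the pooled one. The authors' signal value per peak has no stated scale, and the −log10 of the q-value in the deposited lists entered no result. Aligner and peak caller: not given in the sources used here.

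Summits were column 2 plus column 10, written 1-based and ranked by signal. Gene models came from Ensembl release 115 and sequence from RefSeq WBcel235, and every peak lay inside its 6 nuclear chromosomes. Summits were assigned within 3000 bp of a gene, or in promoter windows from 1000 bp before to 200 bp after any protein-coding transcript's start. The search for 10 E-box classes covered both strands up to 100 bp from a summit. Replicate lists shared 0 identical intervals.

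No test was made, since there is 1 group, and the members, lists and motifs were chosen with earlier results of these data known. Genes named were all members, up to 6 of the fasting list by signal, genes with nearer starts and genes adjacent in rank; nhr-80 and lbp-8 were added outside this rule after their values were seen. Protein sequences were not used here. Window assignment and motif search were tested on simulated data. Python 3.11.15, numpy 2.4.6, pandas 2.3.3 and matplotlib 3.10.9 were used.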

Additional observations from a re-analysis of the deposited data

How the results depend on the processing

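Of 36 alternatives over 5 counts, 31 stayed within 1.5 times the reported count. The whole pooled list, background included, gave 7 lipl genes with a summit within 3 kb, 5 with one in the promoter window, 7 summits with CACGTG and 8162 protein-coding genes with a promoter summit. The upper of 2 equal parts of the IDR peaks, split by signal, gave 1194 protein-coding genes and 2 lipl genes with a promoter summit, and both changes follow from the number of peaks kept. Taking the 3935 highest peaks of one replicate gave 3 lipl genes near a summit and 3 at promoters without either replicate, between 3 and 4 summits with CACGTG, and 2121 to 2274 protein-coding genes. The 4 promoter CACGTG sites without a summit were 4 without either replicate, and 3 with a distance of 200 bp or by peak intervals. No paired analysis was possible because there is 1 group. Depth, which is unknown, and the list length of 30000 peaks limit what weak or absent summits show.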
